A study of Mus musculus with 8 samples.

Results

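Hedgehog pathway genes were examined in primary lung fibroblasts (pFBs) of transgenic and wild type mice. The set holds 9 genes, *Gli1*, *Gli2*, *Gli3*, *Ptch1*, *Smo*, *Hhip*, *Gas1*, *Boc* and *Cdon*, taken by gene symbol from the 54532 entries of the deposited count table. All 9 were listed once, 7 passed the count filter that left 14150 genes for testing, and *Gli1* and *Hhip* were outside it. The pFBs came from female mice on a C57/black background and were cultured in medium with serum, with no treatment. The 4 WT libraries (WT1 to WT4) came from wild type mice, and the 4 HOMO libraries (HOMO1 to HOMO4) from mice homozygous for a CRISPR/Cas9 knock-in of human IGFBP5 (hIGFBP5), a secreted binding protein of insulin-like growth factors studied in fibrosis. The transgene is driven by the elongation factor Ef1a1 promoter and expressed ubiquitously, so the HOMO cells came from lungs in which other cell types carried it too. The age of the mice, and how many mice stand behind the libraries, are not given in the sources used here. The comparison asked which transcripts differ between HOMO and WT pFBs.

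In Hedgehog signaling, a secreted ligand binds the receptor Patched, which in the absence of ligand keeps the transmembrane protein Smoothened inactive. Active Smoothened acts at the primary cilium on the Gli transcription factors, which switch from repressor to activator forms and turn on target genes, *Gli1* and *Ptch1* among them. In the lung, ligand from the epithelium is known to act on the surrounding mesenchyme, from which fibroblasts derive.

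*Gli2*, which encodes the main activator among the Gli factors, was measured at 2.52 times its WT level in HOMO, and *Boc*, which encodes a co-receptor for the ligands, at 1.99 times. Both were upregulated, and neither overlapped between the genotypes. The other 5 tested genes, *Ptch1*, *Smo*, *Gli3*, *Gas1* and *Cdon*, overlapped between the genotypes and were not called. *Gli1* and *Hhip*, which are read as targets of the pathway, had at most 9 counts in any library. Of the 7 tested genes 2 were called upregulated and 0 downregulated, where 12.1% of all tested genes were called, 5.94% upregulated and 6.18% downregulated. The 2 genes were also those without overlap between the genotypes, which held for 27.3% of all tested genes. The median log2 fold change (HOMO minus WT) was 0.10 over the 7 genes and −0.04 over all tested genes.

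Levels are given as CPM, counts scaled to the size of the library, with sizes adjusted by TMM, a method that centers the log ratios between libraries. A gene was called at an edgeR adjusted p under 0.05 with an absolute log2 fold change above 0.6, the thresholds of the study. Log2 fold changes are HOMO minus WT, with their standard error (SE). Total counts ran from 17236521 to 31987790 per library, and 3 counts, taken as the floor of counting, stood for 0.0908 to 0.172 CPM, a limit that covers counting error only. The 8 libraries were not equally far apart: the biological coefficient of variation was 7.65% between WT1 and WT2, 4.71% between HOMO1 and HOMO2 and 5.07% between HOMO3 and HOMO4, and 30.05% to 56.4% between all other libraries of 1 genotype. These 3 pairs differed by more than sampling noise, with chi-square values of 4.04 to 8.22 per degree of freedom over genes, which does not tell separate cultures from repeat libraries of 1 culture. The 8 libraries were counted as labelled, and the calls are also given with the pairs summed. How many mice or cultures the libraries came from is not given, so p-values measure the spread between these libraries, which may be partly technical. All 10 fibroblast markers were detected, at a summed 19040 to 25800 CPM in WT and 19260 to 32080 CPM in HOMO. Of these 10 markers 2 (20%) were called, where 12.1% of all tested genes were. *Pdgfrb* (log2 fold change −0.97, edgeR adjusted p = 0.0251) and *Vim* (−0.65, edgeR adjusted p = 0.0430) were lower in HOMO. The list went both ways, with 4 log2 fold changes above 0 and 6 below. *Col1a1* (0.82, edgeR adjusted p = 0.0985), higher in every HOMO library, and *Thy1* (−1.62, edgeR adjusted p = 0.116) were not called. The human transgene was not analysed here, so it gives no check of the labels.

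Promoters are shown for *Gli2*, which was upregulated, for *Smo*, which had the smallest change of the 7 tested genes, and for *Hhip*, which was near the floor, so that their base composition can be read beside their levels. Each line holds the 250 bases upstream of the RefSeq start site (build GRCm38.p6), 5′ to 3′ on the strand of the gene, at chr1:119053620-119053869 (minus strand) for *Gli2*, chr6:29735247-29735496 (plus strand) for *Smo* and chr8:80058009-80058258 (minus strand) for *Hhip*. Capitals mark GC boxes (GGGCGG, or CCGCCC on the other strand).
Gli2: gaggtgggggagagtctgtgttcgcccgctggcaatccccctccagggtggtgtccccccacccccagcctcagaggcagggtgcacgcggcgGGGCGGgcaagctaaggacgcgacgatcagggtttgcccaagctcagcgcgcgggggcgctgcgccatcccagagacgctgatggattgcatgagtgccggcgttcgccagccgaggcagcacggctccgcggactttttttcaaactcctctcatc
Smo: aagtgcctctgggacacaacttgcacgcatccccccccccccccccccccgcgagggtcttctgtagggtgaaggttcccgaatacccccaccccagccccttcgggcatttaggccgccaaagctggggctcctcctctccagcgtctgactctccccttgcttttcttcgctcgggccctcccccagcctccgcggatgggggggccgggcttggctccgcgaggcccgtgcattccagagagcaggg
Hhip: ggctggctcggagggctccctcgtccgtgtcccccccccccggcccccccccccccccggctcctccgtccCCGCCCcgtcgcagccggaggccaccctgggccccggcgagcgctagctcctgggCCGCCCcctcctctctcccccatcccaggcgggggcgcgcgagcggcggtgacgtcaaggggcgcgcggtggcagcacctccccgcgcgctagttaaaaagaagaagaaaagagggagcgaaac
The stretch of *Gli2* held 1 GC box at 67.2% G and C, that of *Hhip* 2 at 76%, and that of *Smo* 0 at 68.4%, where 32.7% of 32851 RefSeq promoters of the same length hold a GC box and the median content of G and C is 52.4%. The 9-letter motif bound by Gli factors (GACCACCCA, or TGGGTGGTC on the other strand) was found in 74 (0.225%) of the promoters and in none of these 3, whose best matches had 7 of 9 letters, and the CCAAT box (CCAAT or ATTGG, found in 33.8% of the promoters) was not found in them either. These are descriptions of letters in a short window.

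Ligands were close to absent from the counts. *Shh*, which encodes Sonic hedgehog, the ligand of the lung epithelium, had 0 counts in all 8 libraries. *Ihh*, which encodes Indian hedgehog, had counts of 7, 2, 0 and 0 in WT1 to WT4 and of 0, 8, 2 and 5 in HOMO1 to HOMO4 (exact two-sided permutation p = 0.8286). *Dhh*, which encodes Desert hedgehog, had 1 count in each WT library and 0, 0, 2 and 0 counts in HOMO1 to HOMO4 (exact two-sided permutation p = 0.571). With 8 libraries the smallest p this test can give is 0.0286. A ligand transcript below the floor of 3 counts per library was not detectable at this depth.

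*Ptch1*, which encodes the receptor that holds Smoothened inactive (chromosome 13 from 63508328 to 63573598, minus strand), was measured at 34.3, 38.9, 16.8 and 46.2 CPM in WT1 to WT4 and at 31.5, 29.6, 29.4 and 25.0 CPM in HOMO1 to HOMO4. The HOMO libraries lay together inside the WT range, with WT3 lowest and WT4 highest of all. Its mean was 34.1 ± 12.5 CPM in WT and 28.9 ± 2.78 CPM in HOMO (SD, n = 4 each), and the log2 fold change was −0.24 ± 0.28 (SE, edgeR adjusted p = 0.589) with a 95% interval from −0.87 to 0.39. It was −0.47 without WT3 (edgeR adjusted p = 0.0547) and −0.06 without WT4, and limma-voom with sample weights gave −0.43 (adjusted p = 0.0110), below the threshold on size. Since *Ptch1* is itself a target of the pathway, its count per count of *Smo* was also taken within each library, where no scaling between libraries enters. This ratio was 0.160, 0.184, 0.120 and 0.197 in WT1 to WT4 and 0.144, 0.138, 0.137 and 0.119 in HOMO1 to HOMO4, again with overlap through WT3.

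*Smo*, which encodes Smoothened (chromosome 6 from 29735503 to 29761365, plus strand), changed least of the 7 tested genes. Its level was 214.5, 211.9, 140.2 and 234.4 CPM in WT1 to WT4 and 219.4, 214.2, 215.0 and 209.1 CPM in HOMO1 to HOMO4. Apart from WT3, which was low, all libraries lay within a narrow range, and the genotypes overlapped. The means were 200.3 ± 41.3 CPM in WT and 214.4 ± 4.21 CPM in HOMO (SD, n = 4 each), and the log2 fold change was 0.10 ± 0.17 (SE, edgeR adjusted p = 0.720). The 95% interval of this difference ran from −0.28 to 0.48, which counts the 8 libraries as separate although some form near-identical pairs. With those libraries summed the log2 fold change was 0.14 ± 0.31 (SE, edgeR adjusted p = 0.871). The interval of the 8 libraries thus does not settle whether a change past the threshold of 0.6 is excluded. Without WT3 the log2 fold change was −0.04.

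Of the co-receptors, which present ligand to Patched, *Boc* was upregulated. *Boc* (chromosome 16 from 44485049 to 44558897, minus strand) was measured at 46.6, 53.6, 29.3 and 61.2 CPM in WT1 to WT4 and at 108.8, 97.9, 83.0 and 90.1 CPM in HOMO1 to HOMO4. Every HOMO library was above every WT library. The mean rose from 47.7 ± 13.6 to 94.95 ± 11.04 CPM (SD, n = 4 in both genotypes), and the log2 fold change was 0.99 ± 0.22 (SE, edgeR adjusted p = 0.0242) with a 95% interval from 0.49 to 1.496. In bulk RNA a change in the share of cells that express a gene and a change in RNA per cell cannot be told apart. The call was lost without HOMO1, HOMO2, HOMO4 or WT1 (edgeR adjusted p = 0.0838, 0.0788, 0.0538 and 0.0507), where the log2 fold change stayed between 0.93 and 1.03, and with the near-identical libraries summed (log2 fold change 1.02, edgeR adjusted p = 0.366). It was also lost with HOMO2 and HOMO3 left out, where the log2 fold change was 1.07 (edgeR adjusted p = 0.192).

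*Cdon*, the close relative of *Boc* (chromosome 9 from 35421128 to 35507652, plus strand), was measured at 35.7, 42.2, 7.92 and 69.6 CPM in WT1 to WT4 and at 33.2, 28.9, 35.6 and 35.4 CPM in HOMO1 to HOMO4. The lowest and the highest level were both in WT libraries, WT3 and WT4. The means were 38.9 ± 25.3 CPM in WT and 33.3 ± 3.10 CPM in HOMO (SD, n = 4 each), and the log2 fold change was −0.23 ± 0.50 (SE, edgeR adjusted p = 0.790). The 95% interval ran from −1.37 to 0.91, which includes changes past the threshold in either direction. The log2 fold change was −0.57 without WT3 and 0.22 without WT4. Within the libraries there were 1.31, 1.27, 3.70 and 0.879 counts of *Boc* per count of *Cdon* in WT1 to WT4 and 3.28, 3.39, 2.33 and 2.54 in HOMO1 to HOMO4. WT3, at the top of all 8 libraries, is the one WT library above any HOMO library.

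*Gas1*, whose product is anchored to the membrane by lipid (chromosome 13 from 60174405 to 60177365, minus strand), varied most. It was measured at 85.4, 103.9, 461.9 and 35.6 CPM in WT1 to WT4 and at 81.3, 91.3, 184.3 and 171.0 CPM in HOMO1 to HOMO4. WT3 was above and WT4 below all HOMO libraries, and HOMO1 and HOMO2 lay apart from HOMO3 and HOMO4. The means were 171.7 ± 195.6 CPM in WT and 132 ± 53.2 CPM in HOMO (SD, n = 4 each), and the log2 fold change was −0.38 ± 0.71 (SE, edgeR adjusted p = 0.749) with a 95% interval from −1.98 to 1.22. Its sign rested on WT3, without which it was 0.81, and without WT4 it was −0.72. *Gas1* shares 19.9% of its exon bases with *Gm48488* on the opposite strand, and without a stated strand setting reads of both cannot be told apart there. *Gm48488* itself had 19 to 55 counts per library, against 919 to 8049 of *Gas1*.

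Levels of different genes can be compared per kilobase (kb) of exon. *Gas1* made up 65.6, 66.7, 95.3 and 34.5% of the summed counts per kb of the 3 co-receptors in WT1 to WT4 and 48.9, 54.5, 72.8 and 69.9% in HOMO1 to HOMO4. *Boc* made up 23.8, 22.9, 4.03 and 39.5% in WT1 to WT4 and 43.5, 38.9, 21.8 and 24.5% in HOMO1 to HOMO4. *Cdon* made up 10.5, 10.4, 0.627 and 25.9% in WT1 to WT4 and 7.65, 6.63, 5.39 and 5.55% in HOMO1 to HOMO4. All 3 shares overlapped between the genotypes, so the higher level of *Boc* in HOMO did not part the libraries by its share of co-receptor transcripts.

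**Figure D1:**
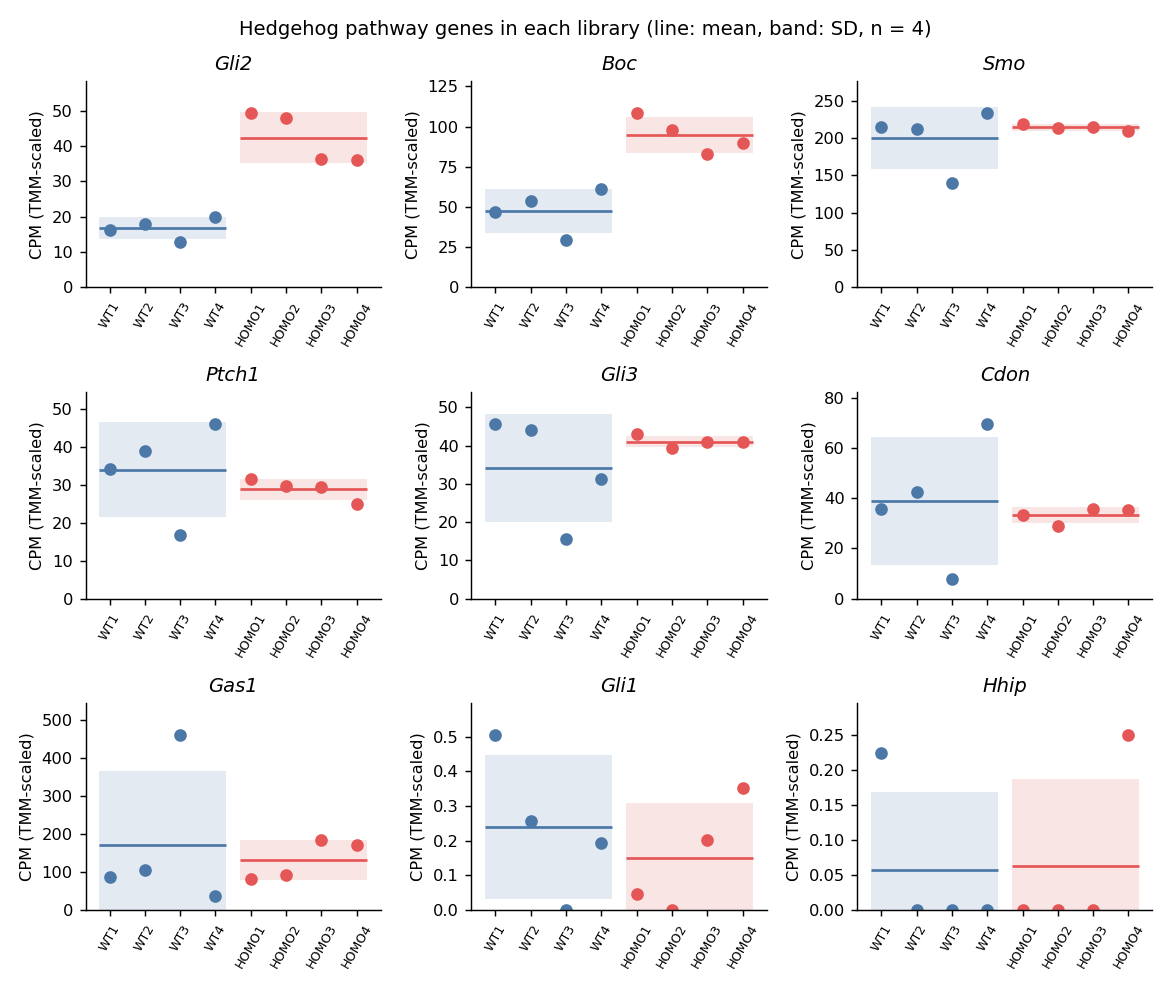
Level of each of the 9 Hedgehog pathway genes (y axis, CPM on TMM-scaled library sizes, a separate scale for each gene) in each library (x axis), WT in blue and HOMO in red, with the mean as a line and the SD (n = 4) as a band that ends at 0. The genotypes part in *Gli2* and *Boc*, WT3 is the lowest library in 6 of the 7 tested genes and the highest in *Gas1*, and *Gli1* and *Hhip* stay under 1 CPM.

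*Gli2* had the smallest p-value of the set. *Gli2* (chromosome 1 from 118834132 to 119053619, minus strand) had counts of 291, 418, 225 and 518 in WT1 to WT4 and of 1111, 1586, 716 and 718 in HOMO1 to HOMO4. This is 16.4, 17.9, 12.9 and 20.0 CPM in WT and 49.5, 48.0, 36.3 and 36.0 CPM in HOMO. The lowest HOMO library was above the highest WT library, and HOMO1 and HOMO2 were above HOMO3 and HOMO4. The mean rose from 16.8 ± 3.01 to 42.5 ± 7.31 CPM (SD, n = 4 in both genotypes), and the log2 fold change was 1.33 ± 0.19 (SE, edgeR adjusted p = 0.00538) with a 95% interval from 0.90 to 1.76. The call held without each of the 8 libraries in turn, with log2 fold changes from 1.23 to 1.43. For WT1, WT2 and the HOMO libraries the near-identical partner stayed in the fit, so these fits do not test the loss of a whole pair. It was lost with HOMO2 and HOMO3 left out (log2 fold change 1.35, edgeR adjusted p = 0.103).

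With the near-identical libraries summed, *Gli2* kept a log2 fold change of 1.35 but was not called (edgeR adjusted p = 0.261). In that fit edgeR called 0% of 16130 genes, with 2057 at an unadjusted p under 0.05 and a smallest adjusted p of 0.0864. Summing leaves 3 WT and 2 HOMO units.

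*Gli3*, which encodes the main repressor among the Gli factors (chromosome 13 from 15463235 to 15730026, plus strand), was measured at 45.7, 44.1, 15.4 and 31.3 CPM in WT1 to WT4 and at 42.9, 39.4, 40.9 and 40.9 CPM in HOMO1 to HOMO4. The HOMO libraries lay close together below WT1 and WT2 and above WT3 and WT4. The means were 34.2 ± 14.0 CPM in WT and 41.0 ± 1.46 CPM in HOMO (SD, n = 4 each), and the log2 fold change was 0.26 ± 0.30 (SE, edgeR adjusted p = 0.580) with a 95% interval from −0.42 to 0.95. It was 0.02 without WT3 and 0.43 without WT1. *Gli3* shares 1.96% of its exon bases with *Gm6556* on the opposite strand.

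*Gli1*, which is both a Gli factor and the usual readout of the active pathway (chromosome 10 from 127329882 to 127341974, minus strand), had counts of 9, 6, 0 and 5 in WT1 to WT4 and of 1, 0, 4 and 7 in HOMO1 to HOMO4. Neither genotype stood above the other. Its level was 0.239 ± 0.209 CPM in WT and 0.150 ± 0.160 CPM in HOMO (SD, n = 4 each, exact two-sided permutation p = 0.571). At this depth, a difference in *Gli1* was not detectable. *Gli1* shares 6.55% of its exon bases with *Arhgap9* on the opposite strand, which had 8 to 114 counts, and reads of both cannot be told apart there. *Hhip*, which encodes a membrane protein that binds and sequesters ligand (chromosome 8 from 79965851 to 80058006, minus strand), was counted 4 times in WT1, 5 times in HOMO4 and not at all in the other libraries (exact two-sided permutation p = 1).

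Counts of *Gli2* per count of *Gli3* were 0.358, 0.407, 0.836 and 0.640 in WT1 to WT4 and 1.15, 1.22, 0.887 and 0.880 in HOMO1 to HOMO4. All 4 HOMO libraries were above all 4 WT libraries, with WT3 close to HOMO3 and HOMO4. This ratio was chosen after the values were seen and is given without a test. *Gli1* made up at most 1.40% of the summed counts per kb of the 3 Gli factors in any library.

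**Figure D2:**
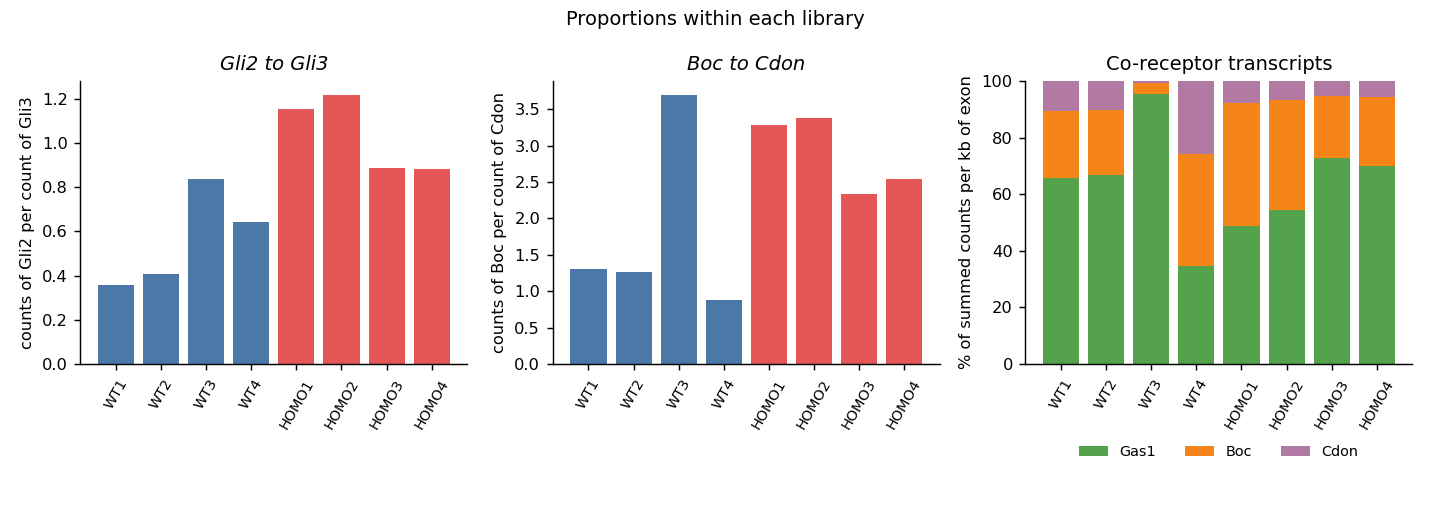
Proportions taken within each library (x axis), WT in blue and HOMO in red: counts of *Gli2* per count of *Gli3* (left), counts of *Boc* per count of *Cdon* (middle) and the shares of *Gas1*, *Boc* and *Cdon* in their summed counts per kb of exon (right, percent). The *Gli2* to *Gli3* ratio is at most 0.836 in WT and at least 0.880 in HOMO, while WT3 lies at 3.70 in the *Boc* to *Cdon* ratio and *Gas1* takes 95.3% of co-receptor transcripts there.

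In WT the order of levels was *Gas1*, *Smo*, *Boc*, *Cdon*, *Gli3*, *Gli2* and *Ptch1*. The highest level was 58.0 ± 66.1 CPM per kb for *Gas1* (SD, n = 4), then 35.6 ± 7.35 for *Smo*, and the lowest was 2.40 ± 0.882 for *Ptch1*. The bands of 1 SD around the means overlapped between all neighbours in this order other than *Smo* and *Boc* (10.7 ± 3.06 CPM per kb). In HOMO the order was *Gas1*, *Smo*, *Boc*, *Gli2*, *Cdon*, *Gli3* and *Ptch1*, with *Gli2* at 6.18 ± 1.06 CPM per kb (SD, n = 4) against 2.45 ± 0.438 in WT. There the bands of *Gas1* and *Smo* overlapped, as did those of *Cdon* (4.31 ± 0.401) and *Gli3* (4.28 ± 0.153), and those of the other neighbours did not.

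**Figure D3:**
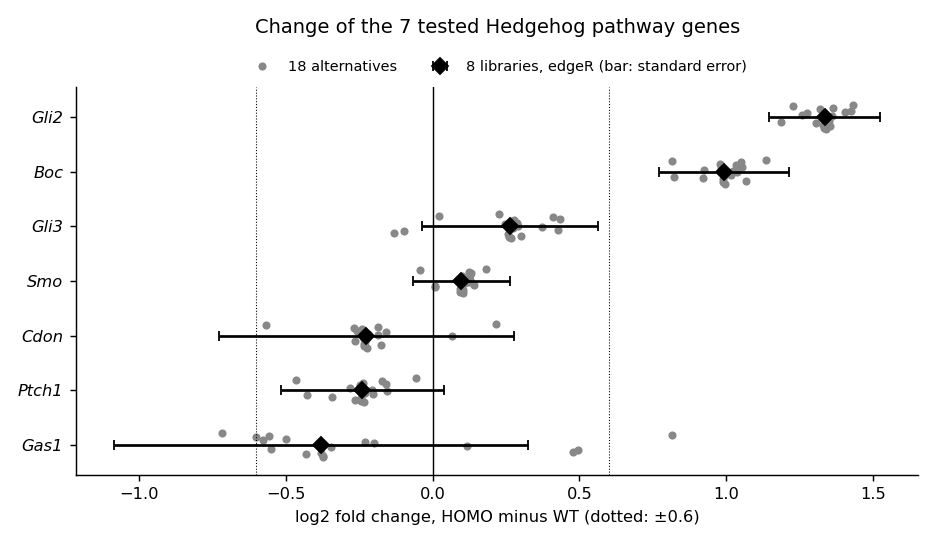
Log2 fold change, HOMO minus WT (x axis), of the 7 tested Hedgehog pathway genes (y axis). Black diamonds are the edgeR fit of 8 libraries with its standard error, gray points the 18 other fits (other tools, scalings and filters, libraries left out or summed), and dotted lines the threshold of 0.6 in either direction. *Gli2* lies between 1.185 and 1.43 and *Boc* between 0.82 and 1.14 in the other fits, while *Gli3*, *Smo*, *Cdon* and *Gas1* lie on both sides of 0.

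WT3 was the lowest of all 8 libraries in 6 of the 7 tested genes, *Gli2* and *Boc* included, and the highest in *Gas1*. The sum of leukocyte markers was also highest in WT3: it was 109.5, 139.9, 1857 and 1091 CPM in WT1 to WT4 and 24.1, 23.0, 131.5 and 152.2 CPM in HOMO1 to HOMO4, with 5 of 7 markers over 3 counts and *Cd3e*, which defines T cells, at 2 counts or fewer. WT4, the next highest in that sum, went the other way from WT3 in some genes of the set and the same way in *Gli3*. It was the highest library in 3 of the 7 tested genes (*Ptch1*, *Smo* and *Cdon*) and the lowest in *Gas1*. In *Gli3* it was the lowest library after WT3, at 31.3 CPM. The summed level of smooth muscle and pericyte markers, all 7 of which were detected, was 836.5, 777.2, 2715 and 903.2 CPM in WT1 to WT4 and 200.6, 206.8, 1456 and 1432 CPM in HOMO1 to HOMO4. Mesothelial markers, 6 of 6 detected, summed to 58.5, 52.8, 234.6 and 147.8 CPM in WT1 to WT4. In HOMO1 to HOMO4 they summed to 152.4, 151.4, 106.0 and 116.4 CPM, so WT1 and WT2 were the lowest libraries. Epithelial markers, 7 of 8 over 3 counts with *Krt5* at 0, summed to 0.281 to 1.55 CPM in WT and 1.61, 7.56, 15.2 and 5.16 CPM in HOMO1 to HOMO4. Endothelial markers, 5 of 7 over 3 counts, summed to 2.31 to 8.13 CPM in WT and 2.63 to 5.88 CPM in HOMO.

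Among tested markers of other cell types, 1 of 6 mesothelial, 1 of 2 epithelial and 1 of 7 smooth muscle and pericyte markers were called. Of leukocyte markers 0 of 5 and of endothelial markers 0 of 2 were called, where 12.1% of all tested genes were. The mesothelial *Wt1* was higher in HOMO, at 1.11 to 8.67 CPM in WT and 26.8 to 40.6 CPM in HOMO (log2 fold change 3.36, edgeR adjusted p = 0.0166). In the mesothelial list 3 log2 fold changes were above 0 and 3 below, with a median of −0.21. The WT libraries were unlike each other in it. *Wt1*, *Msln*, *Upk3b*, *Lrrn4* and *Upk1b* were lower in WT1 and WT2 than in every HOMO library. *Krt19* went the other way, at 35.4 and 28.4 CPM in WT1 and WT2 and 1.2 to 2.7 CPM in HOMO. *Krt19* of that list was at −3.06 (edgeR adjusted p = 0.0856) and was not called. The epithelial *Cdh1* was also higher, at 0 to 0.503 CPM in WT and 1.16 to 2.21 CPM in HOMO (log2 fold change 2.77, edgeR adjusted p = 0.0462). *Cdh1* passed the count filter through its HOMO libraries alone, so its p is not separate support. *Foxj1*, the other epithelial marker tested, had a log2 fold change of −0.57 (edgeR adjusted p = 0.651). The pericyte marker *Rgs5* was lower, at 0.689 to 36.1 CPM in WT and 0 to 0.659 CPM in HOMO (log2 fold change −5.20, edgeR adjusted p = 0.0486). *Rgs5* passed the count filter through its WT libraries, where it was high, so its p is not separate support either.

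Without WT3 and WT4, the libraries with the highest leukocyte sums, *Gli2* (log2 fold change 1.31, edgeR adjusted p = 0.00408) and *Boc* (0.92, edgeR adjusted p = 0.00486) were still called. Without HOMO2 and HOMO3, the libraries with the highest epithelial sums, neither was called, and the log2 fold changes were 1.35 for *Gli2* and 1.07 for *Boc*, against 1.33 and 0.99 with all 8 libraries. The fit without WT3 and WT4 keeps WT1 and WT2, a near-identical pair (biological coefficient of variation 7.65%), as the WT group. These are also the libraries with the lowest mesothelial sums, below all HOMO libraries. The fit without HOMO2 and HOMO3 keeps HOMO1 and HOMO4, which are further apart (30.05%). The p-values of these fits thus rest on unlike spreads and cannot be set against each other. The part of other cell types in the differences of *Gli2* and *Boc* was not tested.

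*Boc* was the gene of the set whose pattern was most like that of *Gli2*. Pearson's r of their log2 CPM was 0.963 over the 8 libraries and 0.986 without WT3, where *Gli2* and *Gli3* gave 0.53 and 0.02. Among all tested genes the 5 closest to *Gli2* were *Ppp1r9a* (r = 0.997), *Zfp862-ps* (0.996), *Nlrc5* (0.996), *Sycp2* (0.995) and *Tnrc18* (0.995). The 8 points include the 3 near-identical pairs and the split by genotype, so these correlations are descriptions and carry no test. *Smo*, *Ptch1* and *Cdon* varied together over the 8 libraries, with r = 0.957 for *Smo* and *Cdon* and 0.926 for *Ptch1* and *Cdon*, and against *Gas1*, with r = −0.924 for *Ptch1* and *Gas1*. Without WT3 these were 0.79, 0.82 and −0.82.

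The wider pathway was covered by 86 further genes in lists by role, of which 78 were tested and 5 (6.41%) called, 1 upregulated and 4 downregulated, below the 12.1% of all tested genes. Their median log2 fold change was 0.01. The genotypes did not overlap in 21 (26.9%), and 21 (26.9%) had an unadjusted edgeR p under 0.05, where the shares of all tested genes are 27.3% and 32.3%. The number called was 0 with the near-identical libraries summed, 1 without HOMO1, 2 without HOMO2, 3 without HOMO3 or HOMO4, 8 without WT3 and 12 without both WT3 and WT4. Leaving out both WT3 and WT4 keeps only the near-identical WT1 and WT2 as the WT group.

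Of 11 genes for release and binding of ligand, 8 were tested and 1 (12.5%) was called, close to the 12.1% of all tested genes. The median log2 fold change of the list was −0.47. *Gpc4*, which encodes a glypican, a heparan sulfate proteoglycan of the cell surface, was measured at 153.3, 147.1, 187.4 and 262.6 CPM in WT1 to WT4 and at 83.8, 79.4, 117.2 and 122.5 CPM in HOMO1 to HOMO4, without overlap. It fell from 187.6 ± 53.0 to 100.7 ± 22.3 CPM (SD, n = 4 in both genotypes), and the log2 fold change was −0.90 ± 0.23 (SE, edgeR adjusted p = 0.0389), a call that was lost in 9 of 18 other fits, those without each HOMO library in turn or without WT4 among them (edgeR adjusted p from 0.0547 to 0.124). The other 2 genes with the highest levels were not called. *Gpc3*, its neighbour on the X chromosome and a known competitor of Patched for ligand, had a log2 fold change of 0.25 ± 0.62 (SE, edgeR adjusted p = 0.813). *Disp1*, which releases the ligand from cells that make it, had one of −0.08 ± 0.34 (SE, edgeR adjusted p = 0.900). The 3 genes of the list outside the test encode secreted proteins. *Scube1*, a carrier of ligand, had counts of 2, 0, 11 and 58 in WT1 to WT4 and 4 in HOMO3 alone among HOMO libraries, *Scube2* 1 to 13 counts in WT and 4 in HOMO3 alone (exact two-sided permutation p = 0.257 and 0.0857), and *Notum* 0 to 10 counts in all.

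All 36 regulators of Smoothened and the Gli factors were tested and 0 were called by edgeR, while 11 (30.6%) had an unadjusted p under 0.05 and 11 (30.6%) did not overlap, close to the shares of all tested genes. Their median log2 fold change was 0.08. *Prkaca*, which encodes a catalytic subunit of protein kinase A, the kinase that primes Gli factors for processing to repressors, was measured at 129.1 to 157.5 CPM in WT and at 193.9 to 205.6 CPM in HOMO, without overlap. Its log2 fold change of 0.49 ± 0.12 (SE, edgeR adjusted p = 0.0297) passed the threshold on p and not that on size, and it lies on chromosome 8, whose 790 tested genes had a median log2 fold change of 0.37. *Sfrp1* and *Foxf1*, described below, lie on this chromosome above that median, and *Foxl1* and *Foxc2* below it. Among the other autosomes the median ran from −0.31 (chromosome 18) to 0.24 (chromosome 12). A link between a gene's change and its chromosome was not tested. *Prkar1a*, the regulatory subunit, was the most abundant per kb of this list and had a log2 fold change of −0.06 ± 0.17 (SE, edgeR adjusted p = 0.856), and *Spop*, an adaptor for degradation of Gli factors, one of −0.24 ± 0.12 (SE, edgeR adjusted p = 0.206). *Sufu*, which holds Gli factors in the cytoplasm, and *Kif7*, the kinesin that organizes them at the tip of the cilium, are the regulators nearest to the Gli factors and were picked for this role after their values were seen. Both were without overlap, at log2 fold changes of 0.49 ± 0.15 (SE, edgeR adjusted p = 0.0638) and 0.46 ± 0.16 (SE, edgeR adjusted p = 0.0836), and neither was called.

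Of 15 genes known as transcriptional targets, 13 were tested and 4 (30.8%) called, where 12.1% of all tested genes were called. *Sfrp1* was upregulated and *Foxl1*, *Foxc2* and *Ccnd1* were downregulated. The genotypes did not overlap in 4 (30.8%), against 27.3% of all tested genes. The median log2 fold change of the list was 0.33. *Sfrp1*, which encodes a secreted inhibitor of Wnt ligands (chromosome 8 from 23411502 to 23449632), was measured at 447, 588, 498 and 439 CPM in WT1 to WT4 and at 3965, 3802, 3376 and 4008 CPM in HOMO1 to HOMO4. Its mean rose 7.68-fold, from 493 ± 68.5 to 3788 ± 288 CPM (SD, n = 4 in both genotypes), and the log2 fold change was 2.94 ± 0.18 (SE, edgeR adjusted p = 1.65e-04). The call was lost in 1 of 18 other fits, the one with near-identical libraries summed. *Foxl1*, which encodes a forkhead factor of mesenchyme, had counts of 20, 23, 88 and 69 in WT1 to WT4 and of 0, 0, 2 and 3 in HOMO1 to HOMO4. Its level in HOMO was at least 18.7-fold lower, taken against 3 counts per HOMO library (edgeR adjusted p = 0.0133), a call that was lost in 3 of 18 other fits, the one without HOMO1 among them (edgeR adjusted p = 0.0501). *Foxl1* passed the count filter through its WT libraries alone, where it was high, so its p is not separate support for the difference.

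*Foxc2*, another forkhead factor, was measured at 39.0, 37.3, 10.6 and 35.6 CPM in WT1 to WT4 and at 3.48, 3.06, 8.46 and 5.41 CPM in HOMO1 to HOMO4. It fell from 30.6 ± 13.5 to 5.10 ± 2.46 CPM (SD, n = 4 in both genotypes) with WT3 near the HOMO libraries, and the log2 fold change was −2.59 ± 0.48 (SE, edgeR adjusted p = 0.0132). The call was lost in 5 of 18 other fits, those without HOMO1 (edgeR adjusted p = 0.0535) or HOMO2 (edgeR adjusted p = 0.0513) among them. *Foxl1*, *Foxc2* and *Foxf1* lie within 46.3 kb of chromosome 8, from 121084386 to 121130644. *Foxf1*, the factor of lung mesenchyme at this cluster, had counts of 538, 735, 1090 and 600 in WT1 to WT4 and of 1206, 1815, 1074 and 1054 in HOMO1 to HOMO4. Its log2 fold change of 0.55 ± 0.28 (SE, edgeR adjusted p = 0.212) was not called, with WT3 above all other libraries in CPM. *Foxf1* was named after its values were seen, for its place beside the others.

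*Ccnd1*, which encodes cyclin D1 of the cell cycle, was measured at 409, 357, 148 and 283 CPM in WT1 to WT4 and at 68.2, 58.5, 144 and 139 CPM in HOMO1 to HOMO4. WT3 came within 4 CPM of HOMO3, without overlap. It fell from 299 ± 114 to 102.5 ± 45.4 CPM (SD, n = 4 in both genotypes), and the log2 fold change was −1.55 ± 0.40 (SE, edgeR adjusted p = 0.0376). The call was lost in 10 of 18 other fits, those without HOMO1, HOMO2, HOMO3, HOMO4, WT1, WT2 or WT4 among them (edgeR adjusted p from 0.0525 to 0.116), and held without WT3. *Ccnd1* shares 23.4% of its exon bases with *LTO1* on the opposite strand. *Ccnd2* and *Bmp4*, the other targets with the highest levels, had log2 fold changes of −0.77 ± 0.34 (SE, edgeR adjusted p = 0.156) and 0.74 ± 0.45 (SE, edgeR adjusted p = 0.287). *Nkx2-2*, a target in the neural tube, had 0 counts in all libraries. All of these genes are known to answer to other pathways too, and *Gli1*, *Ptch1* and *Hhip*, the more specific targets, are described above.

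Of the 21 genes of ciliary transport, all were tested and 0 were called by edgeR, with 4 (19%) at an unadjusted p under 0.05 and 5 (23.8%) without overlap, both below the shares of all tested genes, and their median log2 fold change was −0.11. The most abundant per kb were *Ift20*, at a log2 fold change of −0.77 ± 0.34 (SE, edgeR adjusted p = 0.160), *Kif3b*, at −0.29 ± 0.19 (SE, edgeR adjusted p = 0.319), and *Ift52*, at −0.11 ± 0.17 (SE, edgeR adjusted p = 0.683). These encode parts of the trains and the motor that carry cargo into the cilium.

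**Figure D4:**
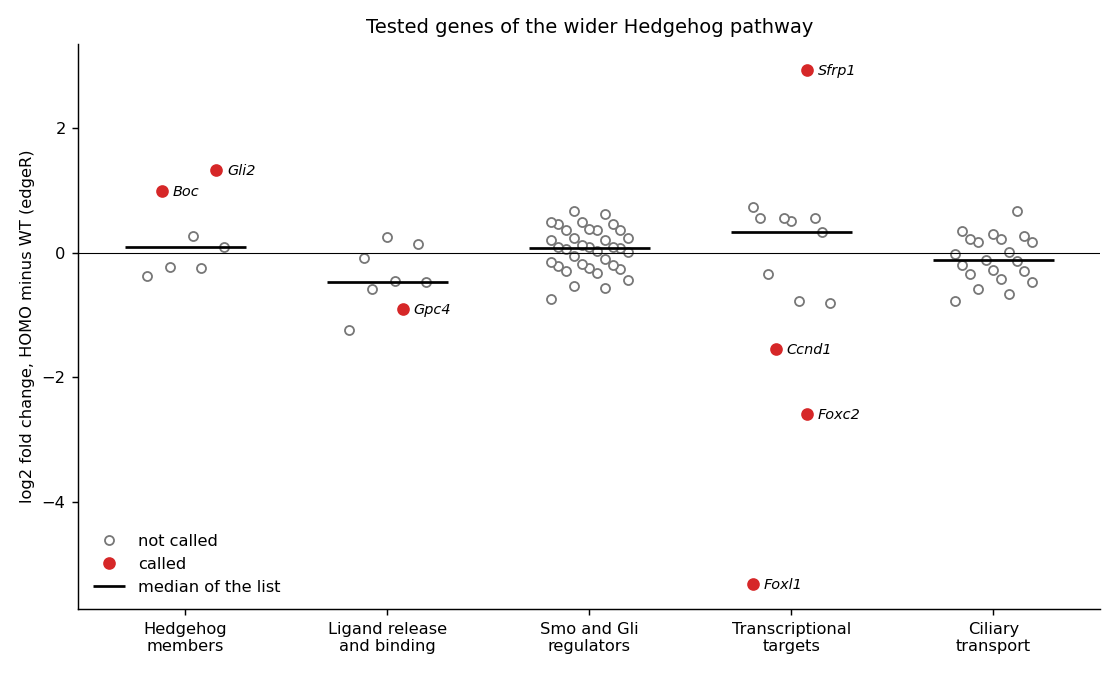
Log2 fold change, HOMO minus WT (y axis), of each tested gene of the 9 Hedgehog pathway genes and of 4 lists of the wider pathway (x axis), called genes in red with their names, others as open circles and the median of each list as a line. *Gli2*, *Boc* and *Sfrp1* lie above 0 and *Gpc4*, *Ccnd1*, *Foxc2* and *Foxl1* below it, no regulator and no ciliary gene is called, and the fitted value of *Foxl1*, at the floor in HOMO, depends on the prior count of the fit.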

How the data were processed

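RNAseq was done on poly-A selected RNA of 8 pFB libraries, 4 WT and 4 HOMO. The deposited values are read counts per gene without normalization, which the authors made with fastp for trimming, STAR for alignment to mm10 and featureCounts for counting. The submitters' processing notes also list CASAVA and DESeq2. Tool versions and the strand setting of the counting are not given in the sources used here. All per-sample columns were used, and 0 were left aside. Why the table carries the label "outlierout" is not stated.

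Counts were fitted on the whole table in R 4.3.3 with edgeR 4.0.16: TMM scaling, filterByExpr by genotype, a two-sided quasi-likelihood F test between HOMO and WT, and Benjamini-Hochberg adjustment over 14150 genes. The standard error (SE) is the size of the log2 fold change over the root of its F, and a prior count of 2 was added for log2 CPM. For genes outside the test, CPM was compared by an exact two-sided permutation test with all 70 assignments of libraries. Alternatives were DESeq2 1.42.0, limma 3.58.1 (voom with sample weights), RLE and upper-quartile scaling, no filter, CPM above 1 in at least 4 libraries, the replicate number as a block, near-identical libraries summed, each library left out, and no fold change threshold. Leaving out WT3 and WT4, or HOMO2 and HOMO3, was chosen after seeing the data. The fit was tested on simulated data. Positions and exon lengths came from GENCODE M21 (GRCm38), which matched 53877 entries, and promoters from RefSeq (GRCm38.p6). *Gli1*, *Boc* and *Shh* had no promoter entry in the table used. Tables were made in Python 3.11.15 (pandas 2.3.3, numpy 2.4.6, scipy 1.17.1) and figures in matplotlib 3.10.9.

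The 9 genes and the lists were chosen with earlier results of these data known. Genes named were the 9, all ligands, and of the other lists each called gene, the genes at the floor and at most 3 more of the highest level per kb. Some genes of the lists are not reported by name. The 5 genes most like *Gli1* were to be named, but *Gli1* had at most 9 counts, so likeness to *Gli2* was given, a choice made after its values were seen. Same-numbered WT and HOMO libraries did not deviate together (correlations −0.0910, −0.0424, 0.0141 and −0.124), so the numbers were not taken as pairs.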

Additional observations from a re-analysis of the deposited data

Results flagged for a closer look

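*Foxc2* stood apart in 1 WT library, WT3, with a log2 CPM of 3.41, while WT1, WT2 and WT4 had 5.16 to 5.29, where the gap to the nearest library is 0.931 of the range of the genotype. It was the 1 case among 24 groups of 4 libraries examined for the genes named. Chance gives about 1 in 20 where the 4 libraries of a group are independent. The near-identical pairs are not, and the groups reuse the same 8 libraries, so that rate does not apply here. The HOMO libraries ran from 1.65 to 3.10 log2 CPM, so *Foxc2* in WT3 was closer to HOMO3 than to any other WT library.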

How the results depend on the processing

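The number of the 9 genes called was 2, and it was 0 with near-identical libraries summed and 0 with HOMO2 and HOMO3 left out, 1 to 2 with each library left out in turn, and 2 in the other fits. The number of wider pathway genes called was 5, and it was 0 with near-identical libraries summed, 1 with HOMO2 and HOMO3 left out, 12 with WT3 and WT4 left out, 13 with limma-voom, 3 with the replicate block, and from 1 (without HOMO1) to 8 (without WT3) with each library left out in turn. Summing and leaving out leave fewer samples, and without WT3 and WT4 the WT group is the near-identical WT1 and WT2. For limma-voom and the block the cause was not tested. *Gli2* was called in 16 of 18 other fits and *Boc* in 12, always higher in HOMO. Signs turned for *Gli3* (−0.13 without WT3 and WT4, −0.10 with limma-voom), *Gas1* (0.48 without WT3 and WT4, 0.50 with limma-voom, 0.12 with the replicate block), *Cdon* (0.065 with the replicate block) and, with 1 library left out, *Smo* (−0.041 to 0.18), *Gas1* (−0.72 to 0.81) and *Cdon* (−0.57 to 0.22), and none of these was called in any fit. With the replicate block *Gli2* (edgeR adjusted p = 0.0259) and *Boc* (edgeR adjusted p = 0.0425) were still called, *Foxc2* (edgeR adjusted p = 0.0683) and *Ccnd1* (edgeR adjusted p = 0.118) were not, and no same-numbered library was the closest in deviation. Depth limits *Gli1*, *Hhip* and the ligands, whose counts were too few for a difference to be detectable.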
